A study of Mus musculus with 10 samples.

Results

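The 48 Hox, Meis, Pbx and Tbx genes described here were taken from a table of sorted mouse mammary cells, in which 12394 genes were measured. They are all genes whose only annotated symbol is Hoxa, Hoxb, Hoxc, Hoxd, Meis, Pbx or Tbx followed by a number. The set holds 9 Hoxa, 9 Hoxb, 6 Hoxc and 7 Hoxd genes, 3 Meis genes, 3 Pbx genes and 11 Tbx genes. Where several probe sets measure 1 gene, the brightest one on average stands for it, and no measured difference entered the choice of members.

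RNA was measured on 10 Affymetrix arrays, and all mice were of the FVB/N strain. Cancer-associated fibroblasts (CAF, 3 arrays) came from mammary tumours of mice with the genotype label WAPCre-DNbcatn;HGF, and fibroblasts of control mammary glands (COF, 3 arrays) came from mice labelled WT. The populations labelled CSC, cancer stem cells, and TEC (2 arrays each) were sorted from tumours of the same genotype as CAF, and the sorted-cell field of the TEC samples reads TEFs. Wap, whose promoter the Cre label names, is a milk protein gene of secretory mammary epithelium. CAF and COF thus differ in genotype as well as in tumour against healthy gland. Age, the gates of the sort and whether each array holds a separate mouse are not given in the sources used here, so p-values measure only the spread between these samples, and the number of arrays limits the precision.

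HOX proteins are homeodomain transcription factors whose genes lie in 4 clusters, in which the order of the genes follows the order in which they are used along the body axis. Fibroblasts of adult skin and organs keep part of this embryonic pattern, and such patterns tell fibroblasts of different body sites apart. MEIS and PBX proteins are homeodomain partners that bind DNA together with HOX proteins. TBX proteins are transcription factors of the T-box family that pattern limbs, heart, body wall and, in the case of Tbx3, the mammary bud.

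Pan-fibroblast genes were high in CAF and COF and pan-epithelial genes in CSC, while leukocyte genes were high in CSC and TEC. The median log2 value of 15 pan-fibroblast genes was 13.01 to 13.21 in CAF, 13.12 to 13.23 in COF, 7.71 and 8.07 in CSC, and 8.47 and 11.17 in TEC replicates 1 and 2. The median of 17 pan-epithelial genes was 6.72 to 7.10 in CAF, 6.15 to 6.25 in COF, 12.03 and 12.14 in CSC, and 9.36 and 10.08 in TEC. Leukocyte genes (12) had medians of 6.79 to 7.92 in CAF, 5.31 to 6.07 in COF, 11.33 and 10.78 in CSC, and 13.45 and 13.04 in TEC. On the CSC arrays the leukocyte median was close below the epithelial one, on the TEC arrays it was above it, and TEC replicate 2 carried more fibroblast transcript than replicate 1. In RNA of sorted populations, fewer cells of a type and less RNA per cell cannot be told apart.

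Values are log2 intensities, on which the lower quartile of an array lay between 5.05 and 5.26 and its median between 6.89 and 7.02. On this scale 17 of the 48 genes (35.4%) stayed under the lower quartile on every array, against 12.7% of all genes. They were Hoxa2, Hoxa4, Hoxa11, Hoxa13, Hoxb1, Hoxb5, Hoxb6, Hoxb7, Hoxb9, Hoxc5, Hoxd1, Hoxd10, Hoxd11, Hoxd12, Tbx4, Tbx20 and Tbx21. The size of a difference in these genes depends on the background, and the arrays do not show which of them are transcribed. The other 31 genes rose above the lower quartile on at least 1 array.

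**Figure D1:**
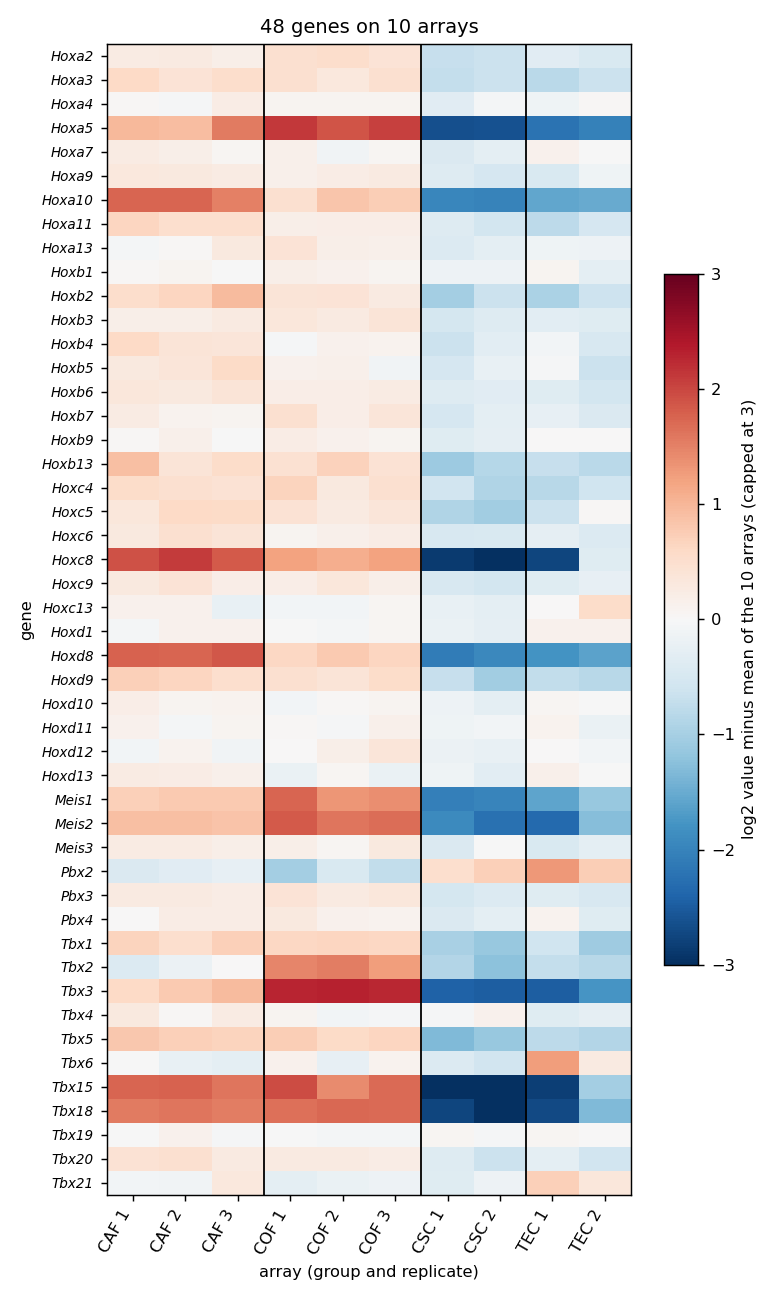
Log2 value of each of the 48 genes on each of the 10 arrays, minus the gene's mean over the arrays; columns are arrays by group and replicate, rows are genes by family, and colours stop at a difference of 3. The fibroblast arrays are above the mean for nearly all genes with wide swings, Pbx2 runs the other way, and TEC replicate 2 stands apart from replicate 1 in Hoxc8, Tbx15, Tbx18 and Meis2.

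CAF and COF were set against each other first, as tumour and healthy-gland fibroblasts. CAF carried less transcript of the T-box repressors Tbx2 and Tbx3, of the HOX partners Meis1 and Meis2 and of Hoxa5, and more of Hoxd8 and Hoxa10. The limma test called 10 of the 48 genes at an adjusted p under 0.05, which is 20.8% against 34.8% of all genes. Of these, 4 were higher in CAF (8.33%, against 18.1% of all genes) and 6 lower (12.5%, against 16.7%). A log2 difference of 1 or more was reached by 3 called genes (6.25%, against 8.31% of all genes), and 1 of them, Hoxd8, was higher in CAF (2.08%, against 3.94%). The arrays of CAF and COF did not overlap for 21 genes (43.8%, against 56.6%). The median difference of the 48 genes was 0.07, against 0.02 over all genes. The 48 genes were thus called at a lower rate than genes at large, and the account below is of single genes.

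Of the 11 Tbx genes, 2 fell in CAF (18.2%, against 16.7% of all genes) and 9 did not pass. Tbx2, a repressor of cell-cycle inhibitor genes, had log2 values of 4.71, 4.94 and 5.13 in CAF, 6.59, 6.67 and 6.38 in COF, 4.24 and 3.89 in CSC and 4.40 and 4.29 in TEC. CAF and COF did not overlap. The CAF arrays lay above the CSC and TEC arrays, and all of these were under the lower quartile. The difference between CAF and COF was -1.62 ± 0.14 (SE, n = 3 and 3, adjusted p = 7.66e-05).

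Tbx3, its closest relative, which the mammary bud needs in order to form, had values of 6.95, 7.16 and 7.31 in CAF, 8.64, 8.69 and 8.62 in COF, 3.93 and 3.88 in CSC and 3.89 and 4.59 in TEC. All CAF arrays were under all COF arrays and above all CSC and TEC arrays. It was 2.84-fold lower in CAF, a difference of -1.51 ± 0.17 (limma adjusted p = 0.000229). A second, dimmer Tbx3 probe set averaged 4.69 over the arrays and was 0.22 higher in CAF. With the mean of both probe sets Tbx3 differed by -0.64 and still passed (adjusted p = 0.00399).

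The other T-box genes with high values in fibroblasts did not pass. Tbx15, which patterns skin and skeleton in the mouse, stood at 9.83, 9.87 and 9.69 in CAF and 10.04, 9.51 and 9.79 in COF, a difference of 0.02 with a 95% confidence interval of -0.82 to 0.87. Tbx18, a factor of mesenchyme around the heart and ureter, stood at 7.66, 7.69 and 7.62 in CAF and 7.75, 7.82 and 7.79 in COF, with an interval of -0.76 to 0.50. Tbx5, the forelimb and heart factor, differed by 0.07, with an interval of -0.13 to 0.28. The fit pools the spread of all 10 arrays, and the TEC arrays lay 1.81 apart for Tbx15 and 1.39 apart for Tbx18.

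Meis1 and Meis2 fell and Meis3 did not pass. Meis1 had values of 6.48, 6.55 and 6.57 in CAF, 7.51, 7.10 and 7.17 in COF, 3.72 and 3.78 in CSC and 4.18 and 4.63 in TEC. The CAF values lay between those of COF and those of CSC and TEC, with a difference from COF of -0.73 ± 0.14 (limma adjusted p = 0.00384). Meis2 had values of 8.15, 8.17 and 8.11 in CAF, 9.09, 8.86 and 8.94 in COF, 5.35 and 5.01 in CSC and 4.93 and 5.99 in TEC, in the same order of groups. It differed between CAF and COF by -0.82 ± 0.23 (adjusted p = 0.0208), and its adjusted p was between 0.0588 and 0.0724 with any one of CAF replicates 1, 2 and 3 or COF replicates 1 and 3 left out.

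None of the PBX genes passed. Pbx2, a widely expressed partner of HOX proteins, stood at 7.03, 7.12 and 7.21 in CAF and 6.44, 7.01 and 6.73 in COF. The difference was 0.39 (adjusted p = 0.122), and without COF replicate 2 it was 0.53 (adjusted p = 0.0477). Pbx3 differed by -0.08 (95% confidence interval -0.26 to 0.10) and Pbx4 by -0.02 (-0.32 to 0.28).

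Among the 31 Hox genes, 4 rose in CAF (12.9%, against 18.1% of all genes), 2 fell (6.45%, against 16.7%) and 25 did not pass. None of the 9 Hoxb and none of the 6 Hoxc genes passed. Of the others, 4 of 9 Hoxa (44.4%) and 2 of 7 Hoxd genes (28.6%) did, against 34.8% of all genes. In a fit on the 6 fibroblast arrays Hoxb2, Hoxb4, Hoxb5, Hoxc6 and Hoxc8 passed too. Hoxd8 stood at 8.86, 8.83 and 8.93 in CAF, 7.70, 7.87 and 7.73 in COF, 4.97 and 5.16 in CSC and 5.28 and 5.48 in TEC. It was 2.16-fold higher in CAF than in COF, a difference of 1.11 ± 0.09 (limma adjusted p = 7.4e-05). The next gene of its cluster on the array, Hoxd9, differed by 0.15 (adjusted p = 0.365).

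Within the Hoxa cluster the changes ran in opposite directions. Hoxa10, known for its role in the uterus, stood at 6.66, 6.67 and 6.43 in CAF, 5.40, 5.75 and 5.66 in COF, 2.95 and 2.90 in CSC and 3.35 and 3.40 in TEC. It rose by 0.98 ± 0.11 in CAF (adjusted p = 0.000268, limma), and its neighbour Hoxa11 rose by 0.36 ± 0.10 (adjusted p = 0.0208). Hoxa5, which lung and mammary development need in the mouse, stood at 7.16, 7.12 and 7.74 in CAF, 8.31, 8.07 and 8.23 in COF, 3.55 and 3.58 in CSC and 3.98 and 4.16 in TEC. It was 1.82-fold lower in CAF (-0.86 ± 0.16, adjusted p = 0.0032), and missed the threshold (adjusted p = 0.0579) once the most alike arrays of each fibroblast group were averaged. Hoxa2 was lower by a smaller amount (-0.24 ± 0.08, adjusted p = 0.0412), and Hoxd13 was higher (0.32 ± 0.10, adjusted p = 0.0355). Hoxa2, Hoxa11 and Hoxd13 lay near or under the lower quartile and lost their call in several settings.

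Hoxc8, a gene of thoracic patterning, had values of 8.77, 8.95 and 8.68 in CAF, 8.07, 7.95 and 8.05 in COF, 3.99 and 3.47 in CSC and 4.11 and 6.48 in TEC. CAF and COF did not overlap, and yet the difference of 0.78 did not pass (SE 0.48, adjusted p = 0.254). The fit pools the spread of the TEC arrays, which lay 2.37 apart. In a fit on the 6 fibroblast arrays the adjusted p was 0.000437, and with either TEC array left out it was 0.00225. Hoxb4 (0.38, adjusted p = 0.0575), Hoxc6 (0.24, adjusted p = 0.0634) and Hoxb2 (0.35, adjusted p = 0.0968) also missed the threshold and passed in the fit on the fibroblast arrays.

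**Figure D2:**
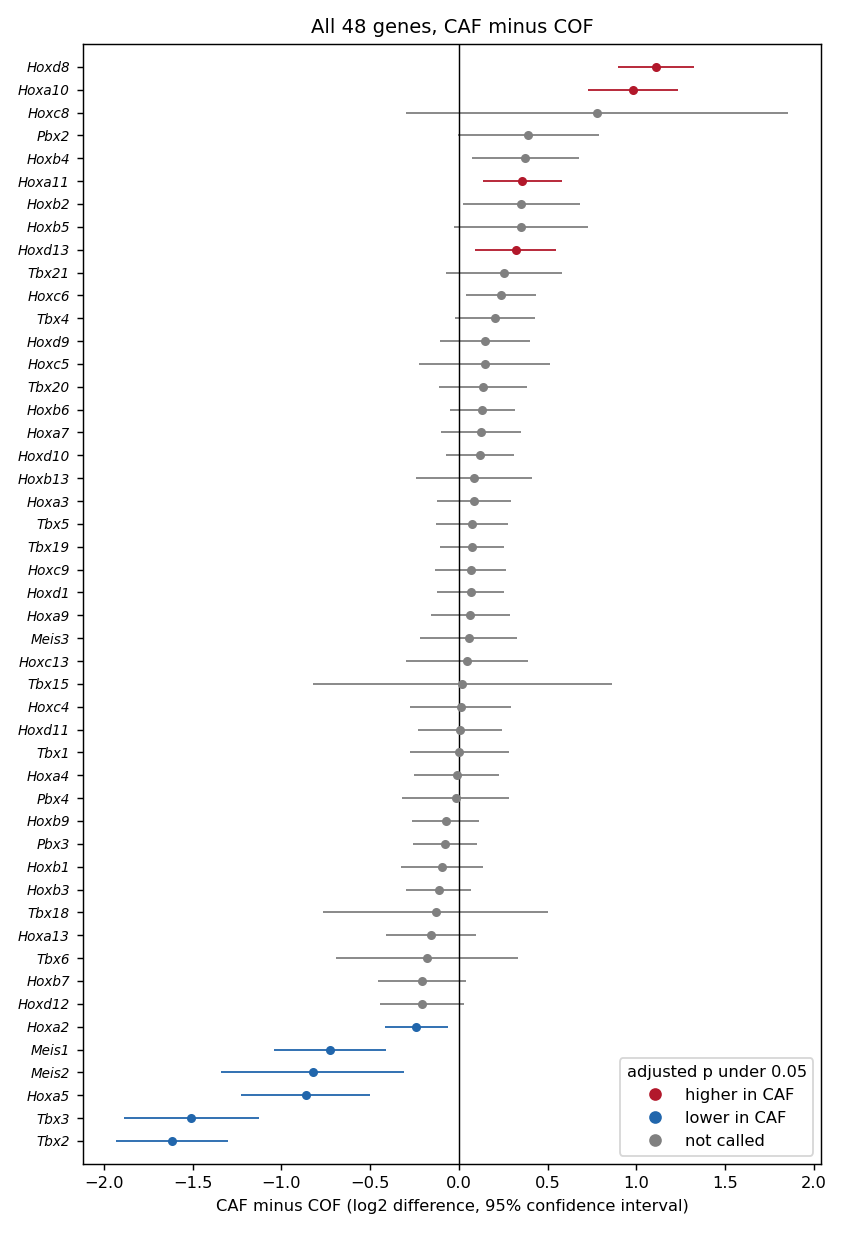
CAF minus COF for all 48 genes, ordered by the log2 difference on the horizontal axis, with 95% confidence intervals of the fit over 10 arrays. Hoxd8 (1.11) and Hoxa10 (0.98) are the highest called genes, Tbx2 (-1.62) and Tbx3 (-1.51) the lowest, and the interval of Hoxc8 is wide and includes 0.

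Markers of other cell types moved between CAF and COF as well. Of all genes, 18.1% were called higher in CAF and 16.7% lower. Leukocyte genes were called higher in CAF in 11 of 12 measured members, with 0 lower, and pan-epithelial genes in 10 of 17, with 1 lower. The medians of both lists are given above. Adipocyte genes were lower in 5 of 7 and higher in 0, with medians of 6.51 to 6.86 in CAF and 8.41 to 8.84 in COF. For 10 endothelial genes the medians lay between 6.20 and 6.33 in CAF, against 5.60 to 6.36 in COF, with 0 higher in CAF and 2 lower. For 9 pericyte and smooth muscle genes they lay between 7.09 and 7.18 in CAF, against 7.15 to 7.25 in COF, with 3 genes higher in CAF and 1 lower. Within that list Rgs5, a pericyte gene, stood at 9.55, 9.98 and 10.11 in CAF, against 7.07, 7.53 and 7.25 in COF. Abcc9, of the same list, went the other way, at 6.55, 6.27 and 5.83 in CAF, against 7.95, 6.91 and 7.67 in COF. For 12 T and NK cell genes the median reached 7.16 in CAF, against 5.49 to 5.80 in COF, and was higher on every CAF array than on any COF array, with 5 genes higher in CAF and 0 lower. The part of these cells in the differences of Tbx2, Tbx3, Meis1, Meis2 and the Hox genes was not tested. The 5 genes that fell by more than 0.7 had lower values in CSC than in CAF, and Hoxd8 and Hoxa10, which rose, had far lower values in CSC and TEC than in either fibroblast group.

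The promoters of 3 Hox genes called between CAF and COF are shown, Hoxa5 and Hoxd8 because they moved furthest in each direction among the Hox genes with an entry, and Hoxa2 because it holds words of the HOX partners. They are 300 bases from RefSeq (build GRCm38.p6), from 250 before to 50 after the start, 5′ to 3′. Hoxa5 lies at chr6:52204538-52204837, minus strand, Hoxd8 at chr2:74704365-74704664, plus strand, and Hoxa2 at chr6:52164782-52165081, minus strand. Capitals mark matches to a searched word, and a promoter with no match has none.
Hoxa5: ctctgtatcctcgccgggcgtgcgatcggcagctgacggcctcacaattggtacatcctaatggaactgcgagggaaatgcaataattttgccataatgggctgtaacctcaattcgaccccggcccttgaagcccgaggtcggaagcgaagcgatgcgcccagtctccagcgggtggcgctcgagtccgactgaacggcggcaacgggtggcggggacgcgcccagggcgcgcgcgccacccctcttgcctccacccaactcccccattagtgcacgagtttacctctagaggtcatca
Hoxd8: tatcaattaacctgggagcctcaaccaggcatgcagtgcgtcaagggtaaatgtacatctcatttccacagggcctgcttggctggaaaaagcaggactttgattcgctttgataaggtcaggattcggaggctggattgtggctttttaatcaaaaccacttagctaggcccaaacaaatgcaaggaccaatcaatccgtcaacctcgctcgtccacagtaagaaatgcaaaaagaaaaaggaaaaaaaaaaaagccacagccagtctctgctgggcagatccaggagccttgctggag
Hoxa2: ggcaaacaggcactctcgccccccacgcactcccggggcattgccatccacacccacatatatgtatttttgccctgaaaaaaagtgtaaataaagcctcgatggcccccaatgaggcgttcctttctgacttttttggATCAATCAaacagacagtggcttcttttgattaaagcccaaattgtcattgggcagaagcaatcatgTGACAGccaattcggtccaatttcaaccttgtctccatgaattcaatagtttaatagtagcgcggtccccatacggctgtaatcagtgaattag
The words searched on both strands were TGATNNAT (PBX with HOX), TGACAG (MEIS), TCACACCT (T-box) and TAATTA (homeodomain). Of 22 genes called with a difference of at least 1 in some comparison, 14 have promoters in the table, 16 in all. The PBX-HOX word was in 2 of the 16 (12.5%, against 8.85% of 32851 promoters), the MEIS word in 3 (18.8%, against 19.2%), the T-box word in 1 (6.25%, against 1.28%) and the homeodomain word in 1 (6.25%, against 5.29%). The Hoxa2 promoter holds the PBX-HOX word and the MEIS word, and those of Hoxa5 and Hoxd8 hold none of the 4. A match is a run of letters and not a measured binding site.

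Both fibroblast groups carried more transcript of most Hox, Meis and Tbx genes than CSC, and Pbx2 was the exception. In CAF minus CSC, 39 of 48 genes passed (81.2%, against 66.5% of all genes), 38 of them higher in CAF (79.2%, against 33.4%) and 1 lower (2.08%, against 33.1%). In COF minus CSC, 37 passed (77.1%, against 69.5%), 36 of them higher in COF (75%, against 35.8%) and 1 lower (2.08%, against 33.7%). The comparisons share the CSC arrays. Called differences of 1 or more numbered 18 in CAF minus CSC (37.5%, against 27.6% of all genes) and 20 in COF minus CSC (41.7%, against 31.4%). Of these, 18 were higher in CAF (37.5%, against 13.4%) and 19 higher in COF (39.6%, against 14.7%), and 17 genes were so in both. Arrays did not overlap for 45 genes between CAF and CSC (93.8%, against 82%) and for 44 between COF and CSC (91.7%, against 80.7%).

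Part of these counts lies at the dim end of the arrays. The lower quartile was 5.21 to 5.26 in CAF, 5.22 to 5.23 in COF and 5.05 to 5.08 in CSC. Over all 1571 genes that stayed under it on every array, the median difference was 0.24 in CAF minus CSC and 0.23 in COF minus CSC, and 41.3% and 42.5% passed as higher. The 17 dim genes described here had medians of 0.38 in CAF minus CSC and 0.43 in COF minus CSC, and 11 (64.7%) and 10 (58.8%) of them passed as higher. The account below turns mainly on genes with larger differences. Many of these also lay near or under the lower quartile on the CSC arrays, where the size of a difference depends on the background.

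Along the Hox clusters the difference between fibroblasts and CSC was uneven. On the probe sets used, the widest gaps were those of Hoxc8, Hoxd8, Hoxa5 and Hoxa10, all of them described above by array. Hoxc8 differed by 5.07 ± 0.53 in CAF minus CSC and 4.29 ± 0.53 in COF minus CSC (limma adjusted p = 3.59e-05 and 8.64e-05). Hoxd8 was higher than in CSC by 3.81 ± 0.11 in CAF and 2.70 ± 0.11 in COF. Hoxa5 was higher by 3.77 ± 0.18 in CAF and 4.64 ± 0.18 in COF. Hoxa10 was higher by 3.65 ± 0.13 in CAF and 2.67 ± 0.13 in COF, and all 6 differences had a limma adjusted p of at most 2.97e-07. Neighbours in the clusters differed less on the probe sets used. Hoxa7 was higher by 0.53 in CAF and 0.41 in COF, Hoxc9 by 0.81 in CAF and 0.75 in COF, and Hoxd9 by 1.49 in CAF and 1.34 in COF. Hoxa9 was higher by 0.73 in CAF and 0.66 in COF on the probe set used. On its second probe set it was higher by 2.73 in CAF and 3.09 in COF, and the COF value is above that of Hoxa10.

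All 8 called Hoxb genes in CAF minus CSC were higher in CAF, by 0.38 to 1.59. Hoxb2, a hindbrain gene of the Hoxb cluster, stood at 7.52, 7.62 and 7.93 in CAF, 7.37, 7.39 and 7.25 in COF, 5.97 and 6.34 in CSC and 6.04 and 6.37 in TEC. Every fibroblast array lay above every CSC and TEC array, with differences from CSC of 1.53 in CAF and 1.18 in COF. Of the 4 Hoxd genes from Hoxd10 to Hoxd13, Hoxd10 (0.34) and Hoxd13 (0.43) were higher in CAF than in CSC, and Hoxd12 (0.38) was higher in COF than in CSC. Hoxd10 and Hoxd12 lay under the lower quartile on every array, and both lost the call after a second quantile normalization. Hoxd11 passed in neither, with 0.16 (95% confidence interval -0.10 to 0.43) in CAF minus CSC and 0.15 (-0.11 to 0.42) in COF minus CSC.

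For Hoxa9 and Hoxc6, probe sets of 1 gene were all higher in CAF than in CSC, by different amounts. For Hoxa9 the probe set used differed by 0.73 in CAF minus CSC, and the other one by 2.73. The other one was dimmer on average over the 10 arrays, yet brighter on every CAF and COF array. In CSC it stood at 4.51 and 4.26, against 6.36 and 6.26 for the one used, and it was dimmer in TEC as well. That second probe set was also 0.36 lower in CAF than in COF, where the one used was 0.07 higher. For Hoxc6, whose 3 probe sets had means of 5.83 to 6.04, the differences in CAF minus CSC were 0.86, 1.60 and 2.09.

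**Figure D3:**
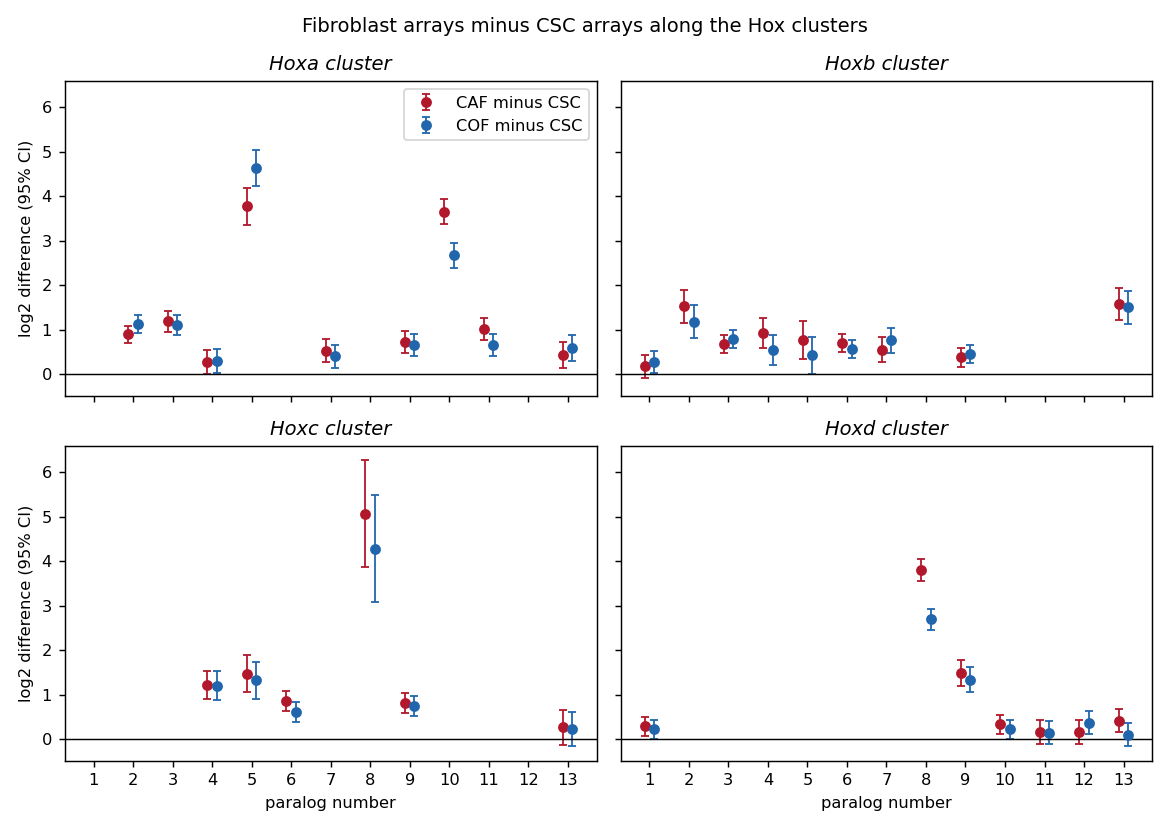
Log2 difference of CAF minus CSC (red) and COF minus CSC (blue) for each measured Hox gene, by cluster (panels) and paralog number (horizontal axis), with 95% confidence intervals. Hoxa5, Hoxa10, Hoxc8 and Hoxd8 stand at 2.67 to 5.07, Hoxb genes at 1.59 or less; paralog numbers with no point were not analysed here.

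The HOX partners divided by gene. Meis1 and Meis2 were higher in both fibroblast groups than in CSC, Meis1 by 2.79 ± 0.16 in CAF and 3.51 ± 0.16 in COF, and Meis2 by 2.96 ± 0.26 in CAF and 3.78 ± 0.26 in COF (limma adjusted p of at most 1.08e-05). Meis3 was higher by 0.45 ± 0.14 in CAF and 0.40 ± 0.14 in COF (limma adjusted p = 0.0153 and 0.0258). It lost both calls once the most alike arrays of each fibroblast group were averaged. With 1 array left out in turn, its difference from CSC ranged between 0.24 and 0.66 in CAF and between 0.18 and 0.61 in COF. Pbx2 had values of 7.03, 7.12 and 7.21 in CAF, 6.44, 7.01 and 6.73 in COF, 7.96 and 8.18 in CSC and 8.76 and 8.21 in TEC. On the probe set used, all CSC and TEC arrays lay above all fibroblast arrays. The differences from CSC were -0.95 ± 0.20 in CAF and -1.34 ± 0.20 in COF (limma adjusted p = 0.00221 and 0.000245). With the mean of its 3 probe sets the differences were -0.45 in CAF and -0.75 in COF, and both passed. Pbx3 ran the other way and was higher by 0.72 in CAF and 0.80 in COF.

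Of the 11 Tbx genes, 7 were higher in CAF than in CSC (63.6%, against 33.4% of all genes) and 7 in COF than in CSC (63.6%, against 35.8%). None was lower in either, against 33.1% and 33.7% of all genes. Tbx15, with the fibroblast values given above, stood at 5.03 and 4.80 in CSC and 5.26 and 7.07 in TEC. It was higher than in CSC by 4.88 ± 0.42 in CAF and 4.86 ± 0.42 in COF (limma adjusted p = 1.04e-05 and 8.97e-06), and both CSC values lay under the lower quartile of their arrays. Tbx18 stood at 3.34 and 3.11 in CSC and 3.37 and 4.77 in TEC, 4.43 ± 0.31 and 4.56 ± 0.31 below CAF and COF. Tbx5 stood at 6.88, 6.77 and 6.73 in CAF, 6.81, 6.65 and 6.70 in COF, 4.74 and 4.92 in CSC and 5.27 and 5.18 in TEC. Its CAF and COF arrays did not overlap those of CSC and TEC, with differences of 1.96 ± 0.10 in CAF and 1.89 ± 0.10 in COF. Tbx3 differed by 3.23 in CAF and 4.74 in COF, and Tbx1, a pharyngeal factor, by 1.69 in each. Tbx2 differed by 0.86 in CAF and 2.48 in COF.

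**Figure D4:**
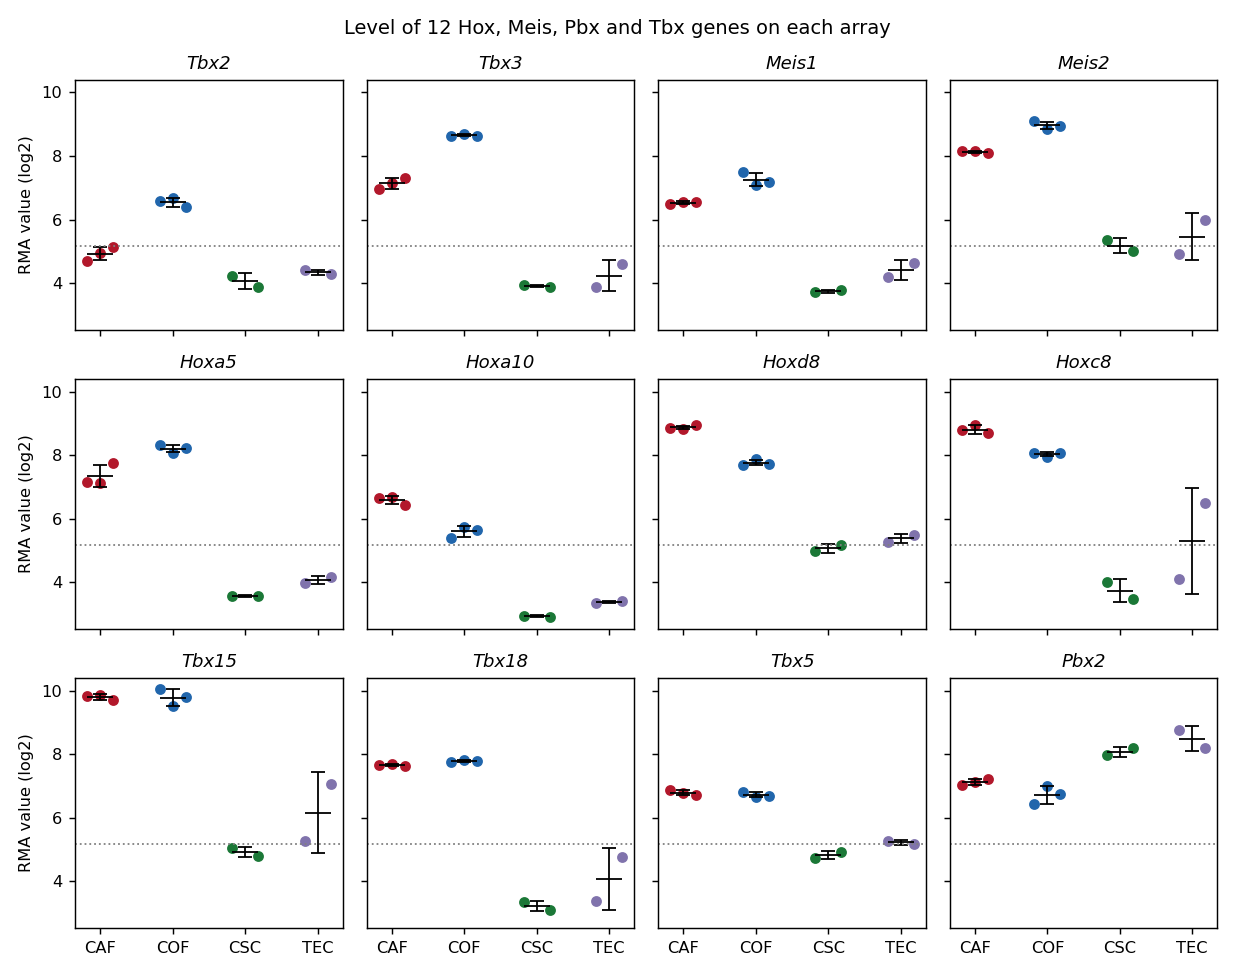
Log2 value on each array (points) with the group mean and SD (black) for 12 genes in CAF, COF, CSC and TEC; the dotted line is the mean lower quartile of the arrays. Tbx2, Tbx3, Meis1, Meis2 and Hoxa5 are lower in CAF than in COF, Hoxa10 and Hoxd8 are higher, the CAF and COF points of Hoxc8 do not overlap, and Pbx2 alone of the 12 is higher in CSC and TEC than in the fibroblasts.

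Within the tumour, CSC carried less than TEC of 11 genes (22.9%, against 20.1% of all genes) and more of 1, Tbx4 (2.08%, against 26.6%), so that 12 of 48 passed (25%, against 46.7%). Only Tbx6 among the called genes differed by 1 or more (2.08%, against 19.2%), and 0 were higher by that much (against 9.91%). CSC and TEC arrays did not overlap for 27 genes (56.2%, against 68.7%). Tbx6, a factor of early paraxial mesoderm, stood at 5.05 and 4.88 in CSC and 6.71 and 5.72 in TEC, a difference of -1.25 ± 0.28 (n = 2 and 2, limma adjusted p = 0.00519). Tbx21, the T-bet factor of T and NK cells, stood at 3.90 and 4.10 in CSC and 4.97 and 4.60 in TEC (-0.78 ± 0.18, adjusted p = 0.00561), under the lower quartile throughout. The median of 12 T and NK cell genes was 6.34 and 5.43 in CSC and 6.80 and 6.73 in TEC, and the part of such cells in the Tbx21 difference was not tested. Meis1 (-0.66 ± 0.17), Hoxc5 (-0.66 ± 0.20) and Hoxa10 (-0.45 ± 0.14) were also lower in CSC. Their values lay under the lower quartile on every CSC and TEC array, where the size of a difference depends on the background. All 3 lost the call without TEC replicate 2, and with 1 array left out in turn Meis1 ranged between -0.88 and -0.43, Hoxc5 between -0.998 and -0.32 and Tbx6 between -1.74 (without TEC replicate 2) and -0.76 (without TEC replicate 1). Without CSC replicate 1 Meis1 and Hoxa10 did not pass, and without CSC replicate 2 Hoxc5 and Hoxa10 did not. In a fit on the 4 arrays of CSC and TEC none of the 48 genes passed (limma), and 6 had an unadjusted p under 0.05.

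Some of the genes with wide gaps between fibroblasts and CSC split in TEC. Hoxc8 stood at 6.48 on TEC replicate 2 and 4.11 on replicate 1, Tbx15 at 7.07 and 5.26, Tbx18 at 4.77 and 3.37, and Meis2 at 5.99 and 4.93. On the probe sets used, these 4 genes (8.33% of the 48, against 5.59% of all genes) differed by at least 1 between the TEC arrays. A second, dimmer Tbx15 probe set did not split, at 3.75 on replicate 2 and 3.79 on replicate 1. Other genes with wide gaps between fibroblasts and CSC lay close together on the TEC arrays: Hoxa5 stood at 4.16 on replicate 2 and 3.98 on replicate 1, Hoxa10 at 3.40 and 3.35, and Hoxd8 at 5.48 and 5.28. Hoxa5, Hoxa10 and Tbx18 lay under the lower quartile on both TEC arrays. The PDGF receptor gene Pdgfra, a fibroblast marker, stood at 9.80 on replicate 2 and 7.02 on replicate 1. Leaving out TEC replicate 1, Hoxc8 (-2.75), Tbx15 (-2.15) and Tbx18 (-1.54) passed as lower in CSC, and with both replicates they did not (adjusted p = 0.0531, 0.0503 and 0.0708). Leaving out replicate 2, they did not pass either.

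Regulators and partners of HOX genes outside the 48 were counted from lists written with earlier results of these data known. Of 23 measured Polycomb and trithorax genes, whose products silence or keep open the Hox clusters, 3 rose in CAF against COF, 11 fell and 9 did not pass, so that 60.9% were called, against 34.8% of all genes. Jarid2 (-1.82 ± 0.17), Eed (-0.93 ± 0.12) and Ezh2 (-0.69 ± 0.12), all parts or partners of the Polycomb complex that methylates histone H3, and the demethylase gene Kdm6a (-1.14 ± 0.11) fell (limma adjusted p of at most 0.00212). Their median difference was -0.28, against 0.02 over all genes. Ezh2 stood at 7.46, 7.63 and 7.60 in CAF, 8.42, 8.03 and 8.32 in COF, 9.01 and 9.16 in CSC and 8.88 and 8.70 in TEC, and Gmnn, the geminin gene of replication licensing, rose (1.70 ± 0.35).

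Retinoic acid induces Hox genes in embryos. Of 17 measured genes of its pathway and Cdx inputs, 3 rose in CAF against COF, 1 fell and 13 did not pass, so that 23.5% were called, against 34.8% of all genes. Aldh1a2, an enzyme that makes retinoic acid, stood at 7.38, 7.52 and 7.89 in CAF, 4.83, 5.06 and 4.59 in COF, 4.19 and 4.25 in CSC and 7.40 and 7.07 in TEC. The TEC arrays lay near those of CAF, and the gene rose by 2.77 ± 0.16 between CAF and COF (adjusted p = 1.64e-05, limma). Rdh10, which acts a step before it, rose by 2.23 ± 0.29, and the binding protein gene Crabp1 fell by 2.02 on the log2 scale ± 0.56, with COF values of 7.81, 10.63 and 9.08.

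Among 11 measured TALE homeobox genes and HOX cofactors outside the 48, 4 were higher in CAF than in CSC (36.4%, against 33.4% of all genes) and 6 lower (54.5%, against 33.1%). The Iroquois genes Irx3 (-3.11 ± 0.22), Irx5 (-2.85 ± 0.20) and Irx2 (-3.24 ± 0.25) were lower in CAF, opposite to most Hox genes, and the PBX-interacting gene Pbxip1 (1.88 ± 0.11) was higher (limma adjusted p of at most 6.06e-06). The same Irx genes were higher in CSC than in TEC, by 2.71, 2.50 and 3.07. Of 3 measured T-box genes outside the rule, Mga fell in CAF against COF (-0.80 ± 0.20), Eomes was higher in CAF than in CSC (0.65 ± 0.20), and none passed between CSC and TEC. Of 37 other positional and mesenchymal transcription factors, 23 were higher in CAF than in CSC (62.2%, against 33.4% of all genes) and 3 lower (8.11%, against 33.1%), with Meox2 (5.82 ± 0.33), Nr2f1 (4.66 ± 0.27) and Shox2 (3.27 ± 0.13) among the higher. Between CAF and COF, 2 of the 37 rose, 4 fell and 31 did not pass (16.2% called, against 34.8% of all genes), with Barx2 (1.79 ± 0.29) higher and Msx1 (-0.94 ± 0.19) lower.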

How the data were processed

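Gene expression was measured on 10 arrays, 3 of CAF, 3 of COF, 2 of CSC and 2 of TEC, grouped by the sample titles. The authors deposited log2 values of 22690 probe sets and the submitters' processing notes name RMA. This method corrects background, equalises the arrays and summarises probes; its version and whether all arrays were processed together are not given in the sources used here. Of the probe sets, 20393 carry 1 gene symbol in the array annotation, 691 several and 1606 none. Only the first kind was used, with 1 probe set per gene, the one with the highest mean. All 48 members matched RefSeq (GRCm38.p6) by gene identifier. Of them, 12 have several probe sets.

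Differences were fitted with limma 3.58.1 in R 4.3.3 over all 12394 genes and 10 arrays, with group as the only term, two-sided, and Benjamini-Hochberg adjustment over the genes of each contrast. A gene was called at an adjusted p under 0.05. SE is limma's moderated standard error, and each confidence interval is at the 95% level. Members, lists and tests were chosen with earlier results of these data known. The rule for genes named by value took, in each contrast, called members with a difference of at least 1, uncalled members of the same family, and from each list at most 4 called genes, by lowest adjusted p. Called members with smaller differences, Gmnn, Pdgfra, Rgs5 and Abcc9 were named after their values were seen. Alternatives changed the arrays in the fit, the probe set rule, the normalization, the prior, the threshold and the filter on dim genes. Replicate numbers were not used to pair the samples in the main fit.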

Additional observations from a re-analysis of the deposited data

Results flagged for a closer look

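A probe set that names both Hoxb8 and Hoxb7, and so entered no comparison, stood at 3.98, 3.56 and 3.80 in CAF and 3.24, 3.42 and 3.16 in COF, with means of 3.78 and 3.27. All CAF arrays lay above all COF arrays, which is why it is listed. It also stood at 3.46 and 3.55 in CSC and 3.27 and 3.63 in TEC. All 10 values were under the lower quartile of their arrays, and the difference was not tested.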

How the results depend on the processing

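No called member changed direction in any setting. Between CAF and COF, Tbx2, Tbx3, Meis1, Hoxa10 and Hoxd8 passed in every setting that tested them, and the other 5 called genes lost the call in some. The count of called members was 10. It was 15 in a fit on the 6 fibroblast arrays, where 5686 of all genes were called. It was 6 at an adjusted p under 0.01, 5 without the dimmest 30% of genes (which left 20 of the 48 to test), and 5 with the closest pairs of arrays averaged (CAF replicates 1 and 2, COF replicates 1 and 3), a setting chosen after seeing the data. Leaving out each array in turn gave 6 to 14, with 6 without CAF replicate 1 or 2 or COF replicate 1 or 3. All called genes numbered 4309, with 2638 at an adjusted p under 0.01, 1805 with the pairs averaged and 2980 to 5100 with an array left out. Between CSC and TEC, 12 members were called, with 2 at an adjusted p under 0.01, 0 in a fit on the 4 arrays alone (limma, 6 at an unadjusted p under 0.05), 5 without the dimmest genes and 5 to 14 with an array left out, with 5 without CSC replicate 1 and 7 without CSC replicate 2. All genes called there were 5786, and 3013 in the fit on the 4 arrays. Without the dimmest genes, all genes called went from 8247 to 5924 in CAF minus CSC and from 8618 to 6260 in COF minus CSC. The calls of 39 members in CAF minus CSC and 37 in COF minus CSC became 20 each in that setting, where 20 members were tested. With an array left out they were 36 to 40 and 32 to 41. Genes near 0 changed sign without a call: Hoxa9, CAF minus COF, was -0.15 with the mean of its probe sets, and Tbx15 ranged between -0.12 and 0.15 with an array left out. The second Hoxa9 probe set differed by -0.36, against 0.07 for the one used. Tbx15 was below 0 without CAF replicate 2 or without COF replicate 2. Why the Hoxa9 probe sets differ was not tested. Deviations of arrays with the same replicate number correlated at -0.08 to 0.13 between CAF and COF and at -0.04 and 0.09 between CAF and CSC. With 2 or 3 arrays in a group, such values cannot decide whether the numbers pair samples. With a replicate block 8, 9, 38 and 34 members were called in CAF minus COF, CSC minus TEC, CAF minus CSC and COF minus CSC. In the same order, 3947, 5365, 7813 and 8229 of all genes were called with it. Signal near background limits the 17 dim genes most.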
